A study of Danio rerio with 6 samples.

Results

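Transcripts of 10 genes for making, binding and breaking down retinoic acid were followed here in cells sorted as zebrafish Müller glia (MG). The genes were picked by name for their place in the pathway. They are rdh10a and dhrs3a, aldh1a2 and aldh1a3, crabp1a and crabp2a, raraa and rarab, and cyp26a1 and cyp26b1, and 10 of 10 were found among the 27152 gene symbols measured. RNAseq was carried out on GFP+ cells purified by FACS from adult retinas, with 2 libraries each from uninjured retinas, from retinas 2 days after a needle poke (injured), and from needle-poked retinas that also received an apobec2a/apobec2b morpholino, at the same time point (knockdown). The injured libraries' columns name a control morpholino, of which the sample labels say nothing, and the uninjured columns name none. If it was given, injury and morpholino delivery cannot be told apart in comparisons with the uninjured group. The labels give the gfap:GFP line for all 6 libraries, in which a promoter active in MG drives GFP, whereas the study's text gives tuba1a:GFP fish for the injured cells. If that is so, the line and the injury cannot be told apart. No source used here says how many fish went into a library or whether the libraries of a group came from separate fish, so p-values measure only the spread between these libraries, which may be technical. Each group has a library a and a library b, and values are given with that of a first.

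Retinoic acid is a small lipid signal made from vitamin A in 2 oxidation steps. Retinol is turned to retinal by Rdh10 enzymes, a step that Dhrs3 enzymes run backwards, and retinal is turned irreversibly to retinoic acid by Aldh1a enzymes. Crabp proteins carry retinoic acid inside the cell, Rar receptors bind it on DNA together with Rxr partners, and Cyp26 enzymes oxidise it for disposal. In the developing zebrafish eye aldh1a2 marks the dorsal and aldh1a3 the ventral retina, and cyp26a1 is a textbook target gene of retinoic acid itself.

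After injury, cyp26a1, rdh10a and aldh1a3 were each lower, by 3.17-fold, 2.14-fold and 1.82-fold in group mean. The genes dhrs3a, aldh1a2, crabp1a and rarab were not called. The receptor gene raraa also fell and the binding protein gene crabp2a rose, both by less than the other called genes. Of the 9 genes tested, 1 was thus higher and 4 lower. Over all genes 29.7% were called higher and 19.0% lower, or 48.7% in either direction. The calls for cyp26a1 and rdh10a were kept without each library, that for aldh1a3 was lost without either of 2 libraries, and those for raraa and crabp2a were lost without any 1. With the apobec2 morpholino, 0 of the 9 genes tested differed from the injured group past the threshold, where 3.14% of all genes were called higher and 6.24% lower. Against the same uninjured libraries, cyp26a1, rdh10a and aldh1a3 were lower in the knockdown group too.

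Levels are given in FPKM, a fragment count divided by transcript length and by the mapped fragments of the library, so they can be compared between genes. In the uninjured libraries rdh10a was the highest of the 10, above 98.4% and 98.6% of all symbols, followed by cyp26a1 and crabp1a, which lay above 95.5% to 96.5%. Below them came aldh1a3 and raraa, whose libraries overlapped, then rarab, aldh1a2, dhrs3a, crabp2a and, lowest, cyp26b1. In the injured and knockdown libraries crabp1a and rdh10a kept to the top, crabp1a above 93.2% to 95.1% of symbols, and cyp26a1 came next, above 85.4% to 89.5% of symbols. All 10 genes together took 0.0362% and 0.0408% of the summed FPKM in uninjured libraries and 0.0182% to 0.0223% in the other 4.

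**Figure D1:**
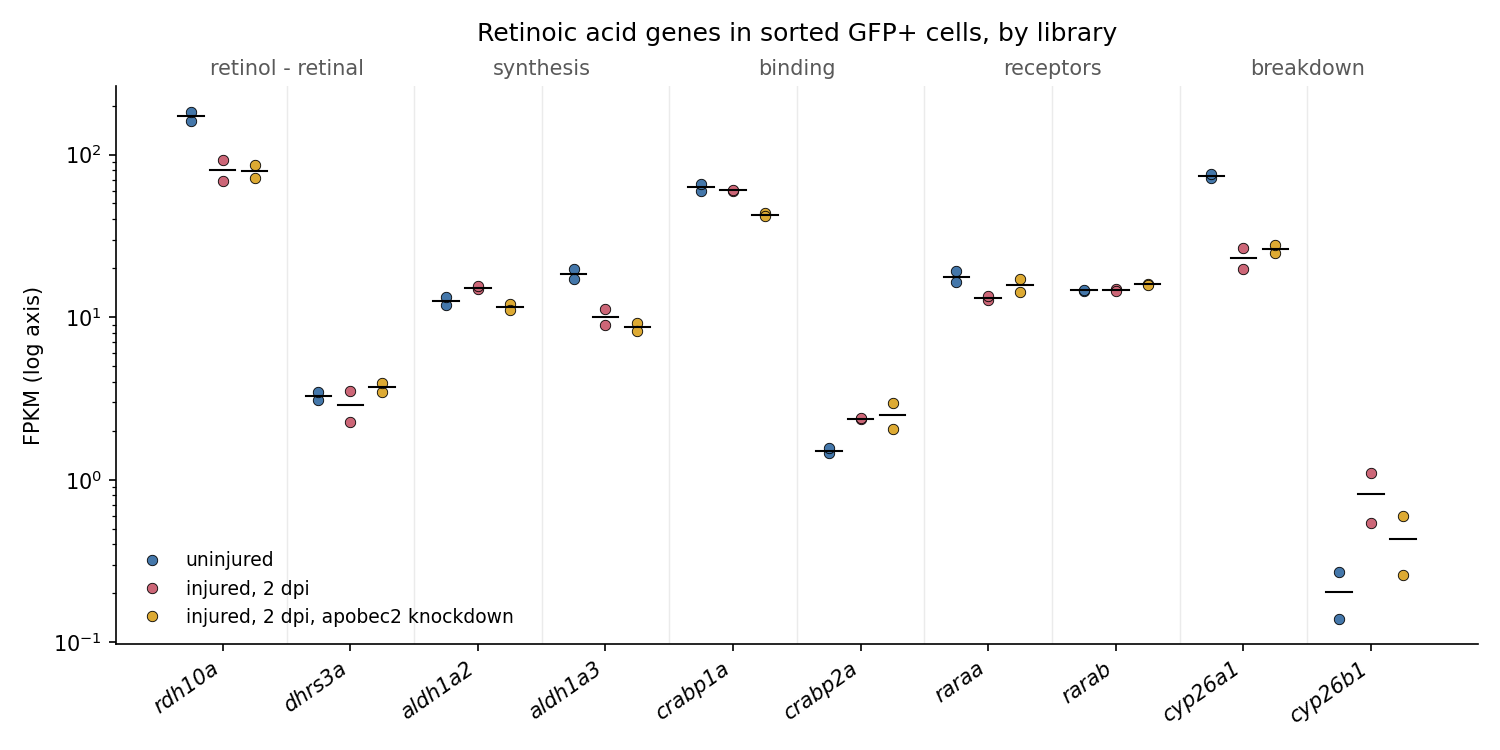
FPKM of the 10 retinoic acid genes in each library, on a log axis, with points for single libraries and a bar for the group mean of 2 libraries. The uninjured points of rdh10a, aldh1a3 and cyp26a1 lie above all 4 points of the other groups, while those of crabp1a lie above the knockdown points only and those of rarab span 14.52 to 14.70.

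The step from retinol to retinal was represented by rdh10a (XLOC_018509, chromosome 24, 13155612 to 13176976 in the table, whose genome build is not given in the sources used here). It measured 161.08 and 183.51 FPKM in uninjured, 68.91 and 92.38 in injured, and 85.77 and 71.77 in knockdown libraries. Both uninjured libraries were above all 4 others, and the injured and knockdown libraries overlapped. From 172.3 ± 15.9 FPKM (SD, n = 2 libraries) the mean went to 80.6 ± 16.6 after injury, a log2 fold change of -1.1 ± 0.18 (SE) on the log2(FPKM + 1) scale, with an adjusted p of 0.0101 in limma's moderated test with Benjamini-Hochberg adjustment over 16849 genes. Its paralog rdh10b went the other way, from 4.38 and 4.56 FPKM in uninjured libraries to 7.74 and 9.42 in injured and 7.97 and 9.06 in knockdown libraries. The rise of rdh10b after injury passed the same limma test, with a log2 fold change of 0.80 ± 0.13 (SE) and an adjusted p of 0.00908. The level of rdh10a was therefore 36.8 and 40.2 times that of rdh10b in the uninjured libraries and 8.90 and 9.81 times in the injured ones, a ratio computed after both genes' values had been seen.

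The reverse step was represented by dhrs3a (XLOC_017162, chromosome 23, 21957772 to 21968821), which reduces retinal back to retinol. Its level was 3.09 and 3.47 FPKM in uninjured, 2.26 and 3.49 in injured and 3.47 and 3.96 in knockdown libraries. These ranges touched or overlapped between all groups, and the log2 fold change after injury was -0.16, with a 95% interval from -0.66 to 0.34 that takes in changes either way. Its paralog dhrs3b stood at 14.54 and 13.74 FPKM in uninjured, 14.32 and 15.92 in injured and 15.13 and 21.94 in knockdown libraries and was not called in any comparison. The genes for retinol-to-retinal oxidation, rdh10a, and for the reverse reaction, dhrs3a, were thus at very different transcript levels, with rdh10a higher in every library.

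Of the 2 genes for enzymes that make retinoic acid itself, only aldh1a3 was called after injury. This gene (XLOC_027582, chromosome 7, 10543164 to 10624894) measured 17.05 and 19.66 FPKM in uninjured, 8.95 and 11.17 in injured and 9.24 and 8.21 in knockdown libraries. Both uninjured libraries were above all others, and the log2 fold change after injury was -0.81 ± 0.15 (SE), with a limma adjusted p of 0.0138. This call was lost without uninjured library b (log2 fold change -0.71, limma adjusted p = 0.0616) and without injured library a (-0.67, 0.0606).

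The gene aldh1a2 (XLOC_027830, chromosome 7, 31622421 to 31742987) measured 11.90 and 13.35 FPKM in uninjured, 14.92 and 15.49 in injured and 12.01 and 11.01 in knockdown libraries. The injured libraries were the highest of the 6, yet the difference from uninjured did not pass the test (log2 fold change 0.25, 95% interval -0.032 to 0.54, limma adjusted p = 0.116). The table gives this gene the same locus as aqp9b and lipca, so reads could have been shared between them and the level of aldh1a2 is uncertain. Of these, lipca was at 0.12 to 0.56 FPKM, while aqp9b stood at 36.30 and 39.18 FPKM in uninjured, 27.74 and 26.71 in injured and 22.19 and 23.89 in knockdown libraries, an order unlike that of aldh1a2.

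Within a library, the level of aldh1a2 was 0.698 and 0.679 times that of aldh1a3 in the uninjured group, 1.67 and 1.39 times in the injured group and 1.30 and 1.34 times in the knockdown group. As measured, aldh1a3 was thus the higher transcript in uninjured cells, and in the 4 other libraries aldh1a2 was. Since the level of aldh1a2 is uncertain for its shared locus, so is which of these genes was higher. With 2 libraries against 2, an exact permutation test cannot go below p = 0.333 (two-sided), which is the value it gave for the ratio in each of the 3 comparisons.

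**Figure D2:**
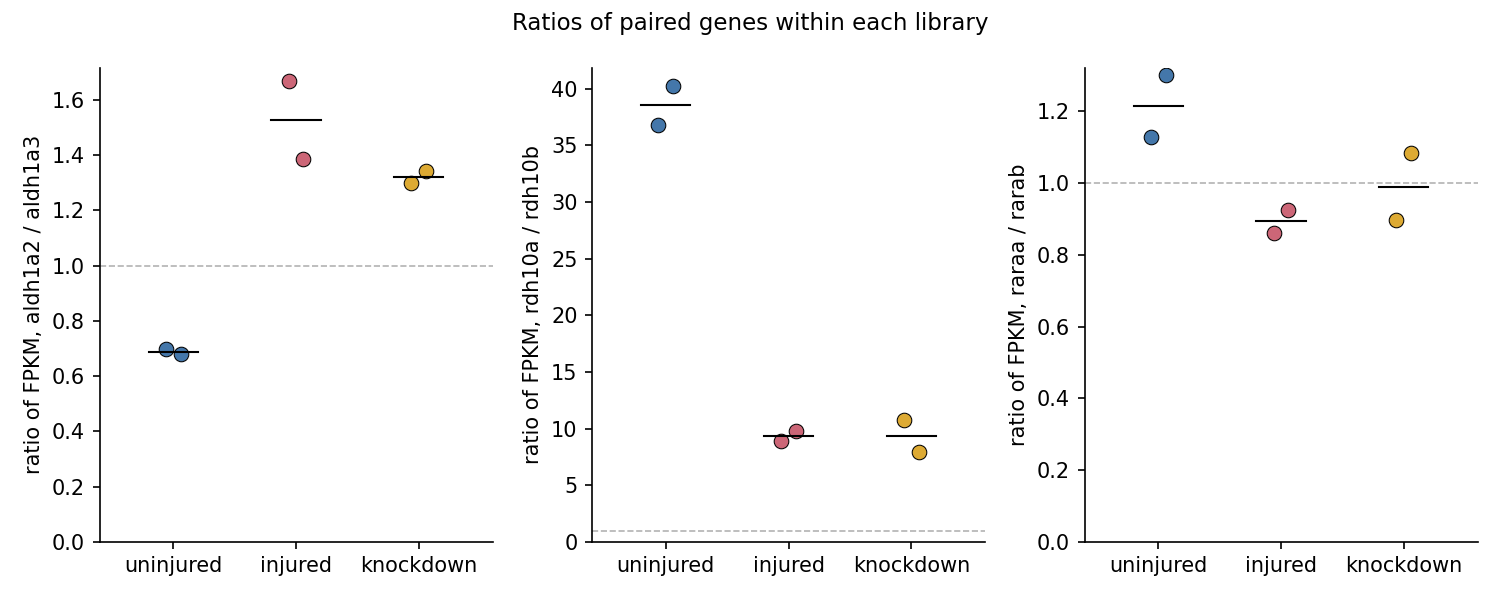
Ratio of FPKM between paired genes within each library (linear axes from 0, points are libraries, bars are means of 2 libraries, the dashed line marks equal levels). The ratio of aldh1a2 to aldh1a3 lies below 1 in both uninjured libraries and above 1 in the other 4, that of rdh10a to rdh10b lies at 36.8 and 40.2 in uninjured libraries and between 7.92 and 10.8 elsewhere, and that of raraa to rarab lies at 1.13 and 1.30 in uninjured libraries and between 0.862 and 1.09 elsewhere. The level of aldh1a2 is uncertain, as its locus is shared with other genes.

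Breakdown was represented by cyp26a1 (XLOC_004162, chromosome 12, 9708962 to 9712555). Of the 10 genes it showed the widest range of group means of log2(FPKM + 1). It measured 71.35 and 75.96 FPKM in uninjured, 19.91 and 26.62 in injured and 24.74 and 27.76 in knockdown libraries. The uninjured libraries stood far above the 4 others, which overlapped each other. The mean went from 73.7 ± 3.3 to 23.3 ± 4.7 FPKM (SD, n = 2 libraries), a log2 fold change of -1.63 ± 0.17 (SE) with a limma adjusted p of 0.00297, and the call was kept in all 13 alternatives, with adjusted p from 7.65e-04 to 0.0205.

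The second enzyme gene, cyp26b1 (XLOC_026983, chromosome 7, 26490838 to 26515694), was at 0.27 and 0.14 FPKM in uninjured, 1.1 and 0.54 in injured and 0.26 and 0.60 in knockdown libraries. It reached 1 FPKM in fewer than 2 libraries of each comparison, missed the filter on low values and was not tested, although both injured libraries lay above both uninjured ones. The remaining gene of the family, cyp26c1, stood at 2.52 and 2.05 FPKM in uninjured, 0.86 and 1.29 in injured and 0.76 and 1.26 in knockdown libraries, and it fell after injury (log2 fold change -0.67 ± 0.15 SE, limma adjusted p = 0.0252). That call was lost without either uninjured library or without injured library a, with adjusted p up to 0.0976. In each library cyp26a1 was the highest of the Cyp26 genes, at 264.3 and 542.6 times the level of cyp26b1 in uninjured, 18.1 and 49.3 times in injured and 95.2 and 46.3 times in knockdown libraries. The ratios varied widely between libraries of one group, with cyp26b1 close to 0. With 1 FPKM added to both genes the mean ratio went from 403.4 to 62.2 in uninjured, from 33.7 to 13.9 in injured and from 70.7 to 19.2 in knockdown libraries. The exact permutation p of the ratio was 0.333 after injury, the smallest possible.

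The binding protein gene crabp1a (XLOC_018928, chromosome 25, 6660040 to 6690536) measured 59.57 and 66.14 FPKM in uninjured, 60.03 and 60.48 in injured and 43.40 and 41.72 in knockdown libraries. Uninjured and injured libraries overlapped (log2 fold change -0.058, 95% interval -0.34 to 0.22), and both knockdown libraries were the lowest of the 6. The other binding protein gene, crabp2a (XLOC_008336, chromosome 16, 16678480 to 16692124), was at 1.46 and 1.56 FPKM in uninjured, 2.36 and 2.38 in injured and 2.04 and 2.97 in knockdown libraries. It rose after injury, by 1.57-fold in group mean (log2 fold change 0.43 ± 0.09 SE, limma adjusted p = 0.0221), and it was lower in both uninjured libraries than in any other. This call was lost when any 1 of the 4 libraries was left out, with adjusted p from 0.0717 to 0.0932, and under quantile normalization, where the adjusted p was 0.125, and with all 3 groups in the fit, where it was 0.0555. Of their paralogs, crabp2b stood between 14.37 and 19.32 FPKM in all 6 libraries and was not called in any comparison, and crabp1b was at 0.44 FPKM or less.

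The receptor gene raraa (XLOC_003643, chromosome 12, 12186819 to 12263281) measured 16.38 and 19.12 FPKM in uninjured, 12.76 and 13.44 in injured and 14.24 and 17.21 in knockdown libraries. It fell after injury by 1.35-fold in group mean, with a log2 fold change of -0.41 ± 0.12 (SE) and a limma adjusted p of 0.0465, and the call was lost when any 1 of the 4 libraries was left out (adjusted p from 0.0586 to 0.171), with a pseudocount of 0.1 (0.0627) and with no filter on low values (0.0596). The second receptor gene, rarab (XLOC_020942, chromosome 3, 33201406 to 33396597), was at 14.52 and 14.70 FPKM in uninjured, 14.81 and 14.51 in injured and 15.89 and 15.86 in knockdown libraries. Of the 10 genes it showed the narrowest range of group means of log2(FPKM + 1). Its log2 fold change after injury was 0.0046, with a 95% interval from -0.24 to 0.25, and its sign changed under 2 other scalings of the libraries. The ratio of raraa to rarab was 1.13 and 1.30 in uninjured, 0.862 and 0.926 in injured and 0.896 and 1.09 in knockdown libraries, again a ratio computed after the values had been seen. Among the other receptor genes, rarga stood at 5.43 and 4.66 FPKM in uninjured and 7.14 and 6.10 in injured libraries (limma adjusted p = 0.095), and rargb at 0.17 FPKM or less.

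Of the 9 retinoic acid genes tested for injury, 1 was higher (crabp2a), 4 were lower (rdh10a, aldh1a3, raraa and cyp26a1) and 4 were not called. Over all 16849 genes tested, 29.7% were called higher and 19.0% lower, so that calls in either direction took 48.7% of all genes and 5 of 9 here. The injured and uninjured libraries did not overlap for 2 of the 9 in the higher direction (crabp2a and aldh1a2) and for the same 4 in the lower, as for 43.8% and 33.4% of all genes. The split of all calls depended on scaling, with 22.5% higher and 28.5% lower under quantile normalization, which left rdh10a, aldh1a3, raraa and cyp26a1 lower and crabp2a not called. The median log2 fold change of the 9 genes was -0.16, and that of all genes tested was 0.083, or -0.11 under quantile normalization. Relative to the median of all genes, the log2 fold changes were -1.72 for cyp26a1, -1.18 for rdh10a, -0.89 for aldh1a3, -0.49 for raraa and 0.34 for crabp2a. Calls for cyp26a1 and rdh10a were kept without each of the 4 libraries. The number of called genes fell from 5 to 3 without uninjured library a or injured library b, and to 2 without uninjured library b or injured library a. By the study's rule of a 2-fold difference with the higher mean above 5 FPKM, rdh10a and cyp26a1 were lower and 0 of 10 higher. This rule carries no test. Of all symbols, 3.01% were lower and 7.50% higher by it, but only 11326 of the 27152 had a group mean above 5 FPKM. Of those 11326, 818 were lower and 2036 higher.

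**Figure D3:**
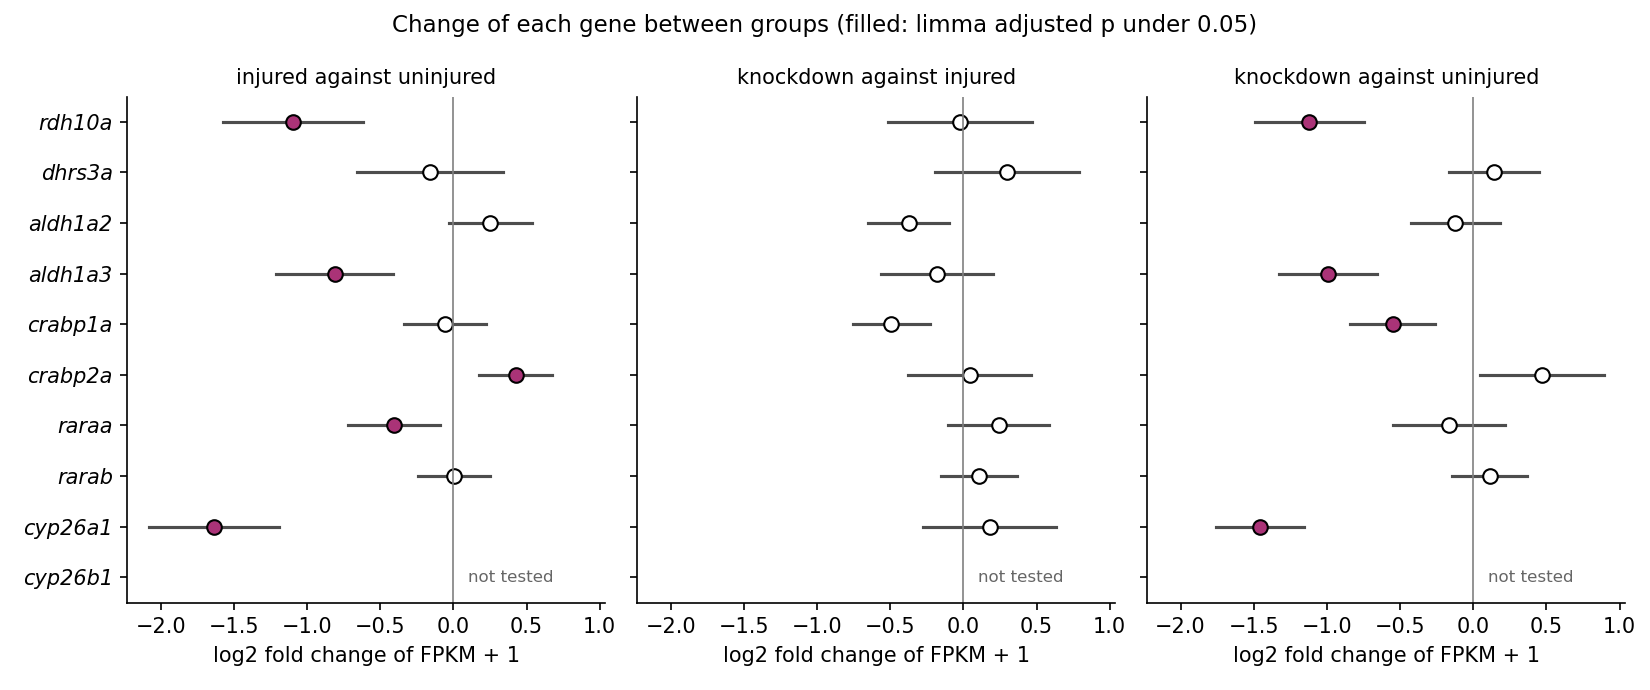
Log2 fold change of FPKM + 1 for each gene in the 3 comparisons, with the 95% interval of limma's fit, filled where the adjusted p is under 0.05. In the injured and the knockdown group against uninjured, cyp26a1, rdh10a and aldh1a3 are filled to the left of 0, and in knockdown against injured no point is filled.

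The knockdown group was set against the injured group to ask what the apobec2 morpholino changed at 2 days post injury (dpi). Limma called 0 of the 9 genes at an adjusted p of 0.05, where 3.14% of 16680 genes were called higher and 6.24% lower. At an unadjusted p under 0.05 there were 2, crabp1a and aldh1a2, against 30.7% of all genes. Their knockdown libraries were below both injured libraries, as were those of 33.2% of all genes, and those of raraa and rarab were above, as for 28.7% of all genes. By the 2-fold rule 0 of 10 were higher and 0 lower, against 0.873% and 2.06% of all symbols. Those were 237 and 560 of the 11031 symbols with a group mean above 5 FPKM. For crabp1a the log2 fold change was -0.49 (95% interval -0.75 to -0.23, adjusted p = 0.0524 by limma), and over its alternatives the adjusted p ran from 0.0203 to 0.201. It was called with a mean-variance trend (adjusted p = 0.0203), with all 3 groups in the fit (0.0319), and among genes with a group mean above 5 FPKM (0.0365). For aldh1a2 the log2 fold change was -0.37 (95% interval -0.65 to -0.095, limma adjusted p = 0.0993).

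For the genes that had fallen after injury, the knockdown libraries did not differ from the injured ones past the threshold. The difference was -0.024 on the log2 scale for rdh10a (95% interval -0.52 to 0.47), 0.18 for cyp26a1 (-0.27 to 0.63), -0.18 for aldh1a3 (-0.56 to 0.20) and 0.24 for raraa (-0.10 to 0.59). The intervals are wide, so the levels in these groups cannot be called alike. Of the morpholino's targets, apobec2a was at 0.15 to 0.51 FPKM in all 6 libraries. A row that the table names APOBEC2 (2 of 2) was at 1.12 and 0.00 FPKM in uninjured, 8.60 and 8.19 in injured and 16.78 and 15.81 in knockdown libraries, highest in the knockdown, and whether it is apobec2b is not said there. Morpholinos block translation or splicing and need not lower a transcript, so neither level checks the knockdown.

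Against uninjured cells, the knockdown libraries had 0 of the 9 genes higher and 4 lower, against 22.9% and 13.9% of 16423 genes tested. The genes were rdh10a (log2 fold change -1.12 ± 0.14 SE, limma adjusted p = 0.00605), aldh1a3 (-0.99 ± 0.13, 0.00623), cyp26a1 (-1.46 ± 0.11, 0.00211) and crabp1a (-0.55 ± 0.11, 0.0204). The calls for rdh10a, aldh1a3 and cyp26a1 were kept in every alternative, and that for crabp1a was lost when any 1 of the 4 libraries was left out, with adjusted p from 0.0531 to 0.0926. Calls among all genes again depended on scaling, with 18.0% higher and 19.1% lower under quantile normalization, under which the same 4 genes were lower. The libraries of both groups did not overlap for these 4, all lower, and for crabp2a and rarab, both higher, as for 31.1% and 41.6% of all genes. By the 2-fold rule rdh10a, aldh1a3 and cyp26a1 were lower and 0 of 10 were higher, against 2.56% and 5.01% of all symbols. Those were 694 and 1360 of the 10947 symbols with a group mean above 5 FPKM. Since both comparisons share the uninjured libraries, the fall of these genes in the knockdown group is not separate evidence of that in the injured group.

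Markers of rods and of retinal position also differed between the groups. Transcripts of rods, which are not the sorted cell type, summed over 9 markers to 14423 and 15076 FPKM in uninjured, 5063 and 7163 in injured and 5408 and 5205 in knockdown libraries. After injury 9 of 9 fell, where 19.0% of all genes were called lower. The call for rho, the highest of the 9 in FPKM, was not kept in every alternative. None of the 9 was at 0. Between knockdown and injured 0 of 9 were called, where 3.14% of 16680 genes were called higher and 6.24% lower. In bulk samples fewer cells of a type and less RNA per cell cannot be told apart. The ventral retina genes vax1 and vax2, which encode transcription factors, were also lower after injury, as were 19.0% of all genes. The level of vax1 went from 5.93 and 6.29 to 2.81 and 3.2 FPKM, and that of vax2 from 4.84 and 3.42 to 1.60 and 2.03. Whether aldh1a3 marks ventral cells in these adult retinas was not tested. The call for vax2 was lost without some libraries (adjusted p up to 0.0946), and that for vax1 was kept in all alternatives. Of 5 dorsal retina genes tested, 1 was lower (gdf6a) and 0 were higher, and 2 were lower under either other scaling. The part of rod RNA or of retinal position in the results for cyp26a1, rdh10a and aldh1a3 was not tested.

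Genes with the pattern most like it were sought for cyp26a1, which of the 10 had the largest range of group means of log2(FPKM + 1). Over the 6 libraries, the 5 non-member genes with the smallest mean absolute difference from it in centred log2(FPKM + 1) were saga (0.0508), NAT16 (0.0549), gas1b (0.0584), gnat1 (0.0589) and slc24a1 (0.0636), among 17289 genes compared. Of these, saga (rod arrestin), gnat1 (rod transducin) and slc24a1 (the rod sodium/calcium-potassium exchanger) belong to rod phototransduction, and gas1b encodes a membrane protein that binds Hedgehog ligands. The retinoic acid genes nearest to cyp26a1 were rdh10a (0.248) and aldh1a3 (0.327), which fell by less. The level of saga went from 381.70 and 385.66 FPKM in uninjured to 106.94 and 135.15 in injured and 133.32 and 132.97 in knockdown libraries. As the 5 genes were chosen for their likeness over these same libraries, that likeness is not separate evidence of a link.

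**Figure D4:**
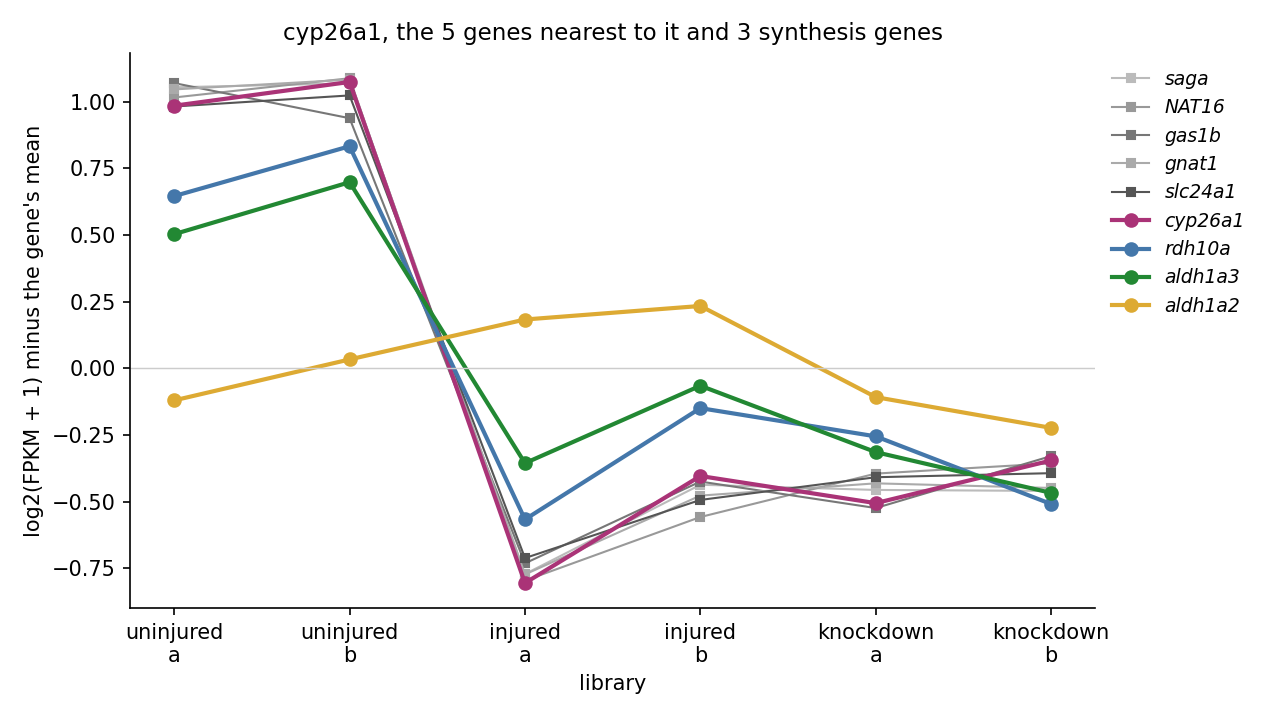
Log2(FPKM + 1) minus each gene's mean over the 6 libraries, for cyp26a1, the 5 genes nearest to it (grey) and rdh10a, aldh1a3 and aldh1a2. Lines only join the points of a gene. The grey lines follow cyp26a1 with mean differences of 0.0508 to 0.0636, while aldh1a2 is highest in the injured libraries.

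MG markers were present throughout, summing to 2368 and 2507 FPKM in uninjured, 2298 and 2600 in injured and 2024 and 2047 in knockdown libraries, with glula at 1196 and 1280, 466 and 463, and 750 and 783 FPKM in the same order. The marker apoeb went the other way after injury, at 571 and 631, 1478 and 1762, and 942 and 926 FPKM. The sums therefore do not show that MG content held steady. Of 9 MG markers tested 6 were higher and 3 lower after injury, and slc1a3b was at 0 in both uninjured libraries. Microglia or macrophage markers summed to 72.5 and 63.3 FPKM in uninjured, 245.5 and 273.3 in injured and 31.6 and 19.4 in knockdown libraries. Of 9, 7 rose after injury and 9 fell with the knockdown. Proliferation genes rose in 10 of 10 cases after injury, and 9 of 10 fell with the knockdown. Cone markers summed to 6072 and 5905 FPKM in uninjured, 5922 and 6322 in injured and 3681 and 2925 in knockdown libraries. After injury 3 of 9 rose and 3 fell, or 0 and 5 under quantile normalization. With the knockdown 8 of 9 fell, or 6 of 9 under that scaling. None of the microglial, proliferation and cone calls with the knockdown was kept in every alternative. Over all genes, 29.7% were called higher and 19.0% lower after injury, and 6.24% were lower with the knockdown. Of the retinoic acid genes, only crabp1a and aldh1a2 had both knockdown libraries below both injured ones, and the part of these cell types in that was not tested.

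The rest of the vitamin A pathway was read through a list of 65 further gene names, of which 45 were in the table and 37 were tested for injury. Of these 37, 13 were higher and 7 lower, near the shares over all genes of 29.7% and 19.0%, and 17 were not called, with a median log2 fold change of 0.089 against 0.083 over all genes. Of the 20 calls, 12 were kept in every alternative that tested the gene. Under quantile normalization the counts were 12 and 12, and rbp4l changed direction and was no longer called. Among the uptake and storage genes, stra6, the cell surface receptor for retinol carried in blood, went from 0.45 and 1.2 to 15.53 and 16.49 FPKM (log2 fold change 3.25, limma adjusted p = 0.00134), and rbp1a, a cellular retinol-binding protein, from 5.02 and 5.16 to 28.54 and 29.45 (2.30, 7.08e-04). The scavenger receptor gene scarb1, which takes up carotenoids, also rose, from 2.21 and 2.26 to 5.75 and 6.36 FPKM, and rbp2a from 0.00 and 0.24 to 4.01 and 12.22. The call for rbp2a was lost without uninjured library a. The carotenoid-cleaving enzyme gene bco2a fell, from 23.52 and 22.68 to 9.84 and 10.89 FPKM (log2 fold change -1.09, limma adjusted p = 0.00256). Of the 7 uptake and storage genes tested, 5 rose and 1 fell, but 4 rose under either other scaling, where rbp4l was not called.

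Of 10 oxidoreductase genes tested, 4 rose after injury, rdh10b, rdh12l and dhrs9 among them, and 0 fell, or 2 under quantile normalization. The visual cycle genes, which recycle retinal for photoreceptors, split into 3 higher (rpe65a, rgrb and rlbp1b) and 3 lower (rlbp1a, rgra and rrh). Over all genes, 29.7% were called higher and 19.0% lower. The calls for dhrs9 and rlbp1b were each lost without 1 of the libraries, and that for rgra without either of 2. The retinoid isomerase gene rpe65a went from 6.56 and 5.22 to 40.05 and 49.69 FPKM, and rlbp1a, which encodes a retinal-binding protein, from 357.20 and 350.35 to 83.93 and 92.29. Pigment epithelium markers, among which rpe65a is counted, summed to 12.5 and 9.9 FPKM in uninjured, 93.7 and 105.1 in injured and 44.4 and 64.1 in knockdown libraries. Of 6 tested, 5 rose after injury (rpe65a, pmela, pmelb, dct and tyrp1b) and best1 fell, and tyr was at 0.12 FPKM or less in all libraries. The part of pigment epithelium RNA in the rise of stra6, rpe65a and rgrb was not tested.

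**Figure D5:**
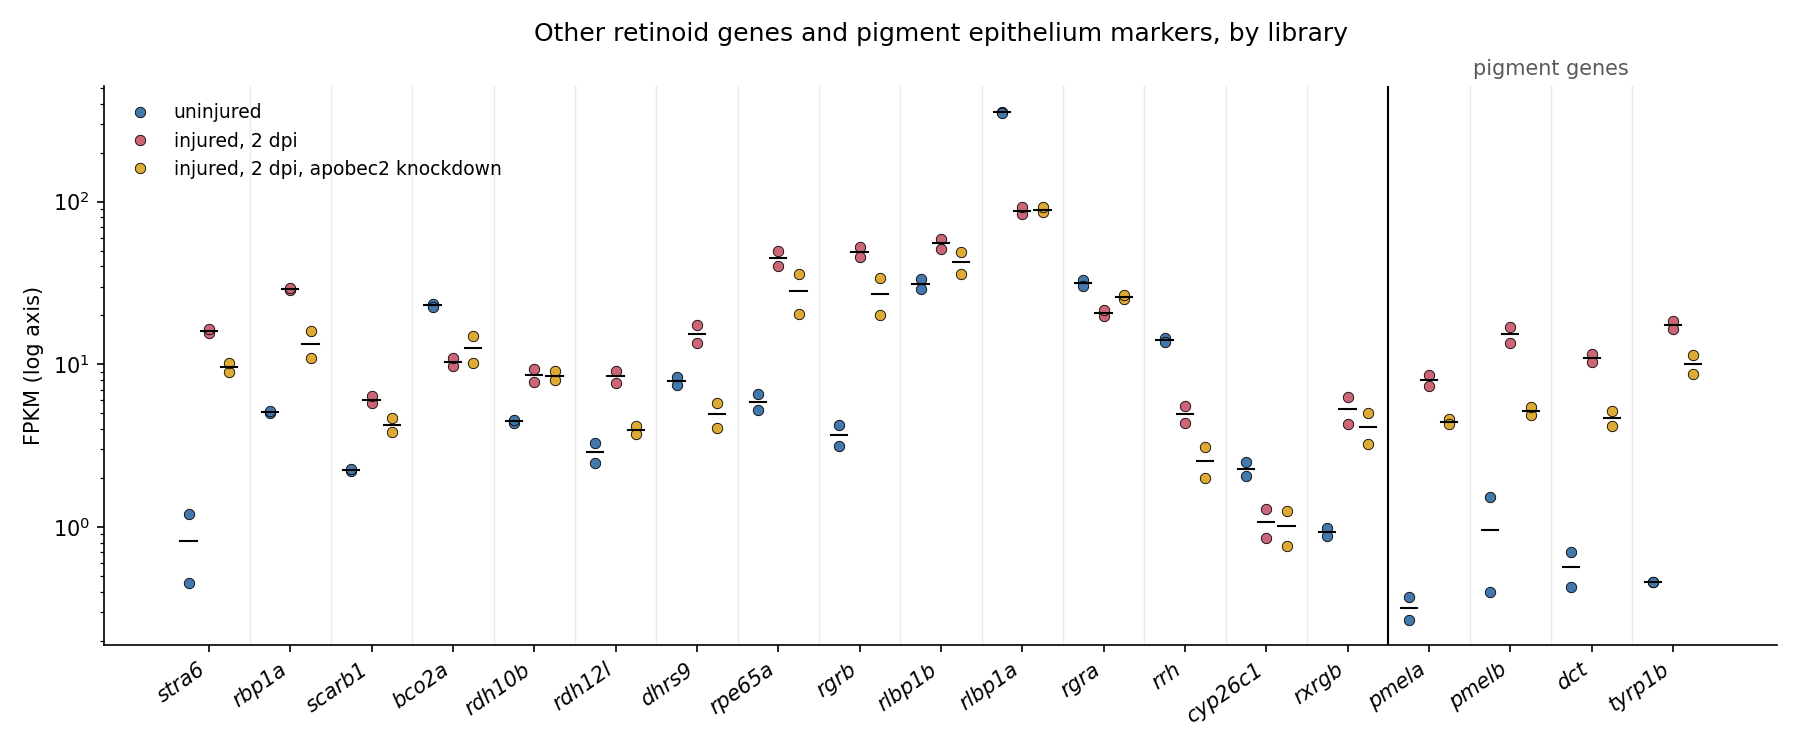
FPKM by library, on a log axis, for 15 further vitamin A genes and, right of the black line, 4 pigment genes, with points for libraries and bars for means of 2 libraries. The injured points of stra6, rpe65a and rgrb lie above the uninjured ones, as do those of pmela, pmelb, dct and tyrp1b, while those of bco2a, rlbp1a, rgra, rrh and cyp26c1 lie below. Of the pigment epithelium markers not shown, best1 and oca2 were lower in both injured libraries than in both uninjured ones. The others not shown, tyr, mitfa and slc45a2, were higher there.

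Rxr receptors, the partners of raraa and rarab, were led by rxrba (25.11 to 28.92 FPKM over the 6 libraries), rxrbb (22.98 to 29.56) and rxraa (12.36 to 16.10), which were not called in any comparison, and rxrab was at 0.16 FPKM or less. The gene rxrgb rose after injury, from 0.99 and 0.88 to 4.28 and 6.34 FPKM (log2 fold change 1.69, limma adjusted p = 0.00363). The corepressor gene ncor1 and the coactivator gene ncoa3 fell after injury by 0.42 and 0.37 on the log2 scale, and the other 5 cofactor genes were not called. Both calls were lost when any 1 library was left out. Over all genes, 19.0% were called lower after injury. Under quantile normalization 5 of the 7 cofactor genes were lower, where 28.5% of all genes were. Under median of ratios scaling 4 were lower, where 3863 of 16849 genes were.

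With the knockdown, 5 of 38 pathway genes fell from the injured level and 0 rose, where 6.24% and 3.14% of all genes did, with a median log2 fold change of -0.028 against -0.021 over all genes. They were stra6 (8.92 and 10.25 FPKM in knockdown libraries), rbp1a (10.92 and 15.94), rbp2a (0.18 and 0.50), rdh12l (4.16 and 3.71) and dhrs9 (5.82 and 4.05), and 0 of these 5 calls were kept in every alternative. Without a library the adjusted p reached 0.176 for stra6, 0.178 for rbp1a, 0.161 for rbp2a, 0.124 for rdh12l and 0.13 for dhrs9, and with no filter on low values only rdh12l was still called. The largest of these with a level above 1 FPKM in each library was dhrs9, a retinol dehydrogenase gene, which went from 13.52 and 17.34 FPKM in injured to 5.82 and 4.05 in knockdown libraries (log2 fold change -1.48, limma adjusted p = 0.0234). Of 5 pigment epithelium markers tested in the same comparison, 3 fell (pmela, pmelb and dct), while rpe65a and tyrp1b were not called. The microglial markers fell too, and no call of either list was kept in every alternative. The part of either cell type in the 5 pathway calls was not tested. Against uninjured libraries, 9 of 37 were higher and 6 lower in the knockdown group, near the shares over all genes of 22.9% and 13.9%. Under quantile normalization 9 were lower, where 19.1% of all genes were. Under median of ratios scaling 8 were lower, where 2747 of 16423 genes were. The calls took in stra6, rbp1a, scarb1, rdh10b, rpe65a, rgrb and rxrgb among the higher and bco2a, rdh14a, rlbp1a, rrh and cyp26c1 among the lower. Those for bco2a, scarb1, rdh14a and cyp26c1 were not kept in every alternative. The serum retinol carrier gene rbp4 was at 23.96 and 23.57 FPKM in knockdown libraries, above the 7.08 to 14.81 of the other 4 libraries, and rdh8b, a photoreceptor retinol dehydrogenase gene, was at 11.77 and 8.90, below the 14.19 to 22.57 elsewhere.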

How the data were processed

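RNA from GFP+ cells of 6 libraries in 3 groups was sequenced by the authors, who deposited FPKM per gene and library, rounded to 0.01, in a table laid out as Cuffdiff writes it. The submitters' processing notes name CASAVA, TopHat and Bowtie2 without versions, and the genome build and annotation are not given in the sources used here. The table lists each of 30689 gene rows 3 times, once per pairwise comparison, and rows of one symbol were summed to 27152 symbols (each of the 10 genes has 1 row). Its columns of group means, fold changes, p-values and q-values were not used, nor were 6 further per-library columns, so no depth, counting interval or detection floor is given. Columns name the group of a library but no replicate number of the labels.

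Groups were compared with limma 3.58.1 (R 4.3.3) on log2(FPKM + 1), 4 libraries per fit, for symbols that reached 1 FPKM in 2 or more of them, which 9 of the 10 genes passed, with Benjamini-Hochberg adjustment over all of these and a threshold of 0.05. The fit was run on simulated data with a small set of changed genes and the spread of the uninjured libraries. That simulation does not bear on the scaling of libraries that differ in many genes. Ratios were taken within a library and compared by an exact permutation test. Libraries were also rescaled by quantiles or by median of ratios. Further alternatives were all 3 groups in one fit, a trended prior, 0.1 FPKM as pseudocount, no low-value filter or one on a group mean above 5 FPKM, the highest row of a symbol, the table's own column index as a block, and leaving out each library. Named were all 10 genes, pathway genes called in a comparison with a group mean above 5 FPKM, paralogs of the 10, Rxr genes, defining markers, and the 5 genes nearest in pattern to the gene of widest range. That range was taken over group means of log2(FPKM + 1). The genes, lists and tests were chosen with earlier results of these data known. Python 3.11.15, NumPy 2.4.6, pandas 2.3.3, SciPy 1.17.1 and Matplotlib 3.10.9 were used for the other steps.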

Additional observations from a re-analysis of the deposited data

How the results depend on the processing

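Among the 115 log2 fold changes of the 9 genes recomputed under alternatives in each comparison, 94, 106 and 110 kept their direction and side of the threshold for injury, knockdown against injured and knockdown against uninjured. Leaving out a library gave 2 to 3 called genes for injury in place of 5, 0 in place of 0 for knockdown against injured, and 3 in place of 4 against uninjured. For knockdown against injured, 1 gene (crabp1a) was called with a trend in the prior, with all 3 groups in the fit and with a group mean above 5 FPKM. Over all genes in that comparison the count fell from 1563 to between 30 and 377 when a library was left out. With 1 FPKM added to both genes, the mean ratio of aldh1a2 to aldh1a3 was 0.705 in uninjured and 1.29 in knockdown libraries, and that of cyp26a1 to cyp26b1 was 62.2 and 19.2.

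The sign of the log2 fold change turned in 12 cases, none of them called. With quantile normalization it was -0.14 for rarab after injury and 0.023 for rdh10a in knockdown against injured, and with median of ratios scaling -0.083 and 0.00069. With each library left out, injury gave -0.39 to 0.071 for dhrs3a (positive without injured library a), -0.13 to 0.016 for crabp1a (positive without uninjured library b) and -0.0092 to 0.018 for rarab (negative without uninjured library a or injured library a). Knockdown against injured gave -0.23 to 0.18 for rdh10a (positive without injured or knockdown library b), -0.15 to 0.24 for crabp2a (negative without knockdown library b) and -0.022 to 0.38 for cyp26a1 (negative without injured library a). The cause was not tested.

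No paired analysis was possible because the columns carry no replicate number of the labels. The table's own column index, which no source says pairs libraries, was tried as a block. It lost only the injury call of raraa (limma adjusted p = 0.0569) among the 9 genes, and deviations of same-index libraries correlated across genes at 0.138, 0.0998 and 0.0917 between groups. FPKM without depth set no limit of detection, which bears most on cyp26b1.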
